A study of Homo sapiens with 6 samples.

Results

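ANKRD37 and 9 other genes of the cellular response to low oxygen were followed in LoVo cells, a human colorectal adenocarcinoma line, after transfection with si-SRSF11, small interfering RNA against the splicing factor SRSF11, or with the negative control si-NC. The members were the rows of the deposited table of 58735 genes named ANKRD37, CA9, VEGFA, ADM, NDRG1, BNIP3, EGLN3, KDM3A, P4HA1 and HIF1A, 10 genes in all. ANKRD37 was chosen by its own change in this contrast, where it was among the larger falls, and the others as known members of the response outside glycolysis. Each condition had 3 libraries of poly(A)-selected total RNA, and both conditions carried an siRNA. The labels name no hypoxia treatment, oxygen level or time after transfection, and do not say which of the siRNAs against SRSF11 was used. They number the libraries but do not say that these came from separate cultures, so each p-value measures the spread between these libraries, which may be technical.

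Hypoxia-inducible factor (HIF) pairs an oxygen-regulated alpha subunit, such as the product of HIF1A, with a stable partner, ARNT. While oxygen is plentiful, prolyl hydroxylases of the EGLN family mark the alpha subunit for destruction through the VHL ubiquitin ligase, so the main oxygen control acts on the protein and not on the HIF1A mRNA. When oxygen is short, the pair binds short DNA elements near genes for angiogenesis, pH control, mitophagy, matrix synthesis and glycolysis, and colorectal tumours are known to use this programme in poorly perfused areas.

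The core of the hypoxia response element that HIF recognises was searched in promoter windows from RefSeq (GRCh38.p14), which run from 250 bases before to 50 bases after an annotated start site. The letters searched were ACGTG and GCGTG on both strands, where CACGTG holds ACGTG on both strands and counts as 2 overlapping matches. The table held windows for 8 of the 10 members, 10 windows in all, and 8 windows of 7 members held a match. It held no window for VEGFA and NDRG1, so whether their promoters hold these letters is not known here. They are shown as the part of the DNA where HIF could in principle meet each gene. Each line gives 30 bases in the direction of the gene, with the matched letters in capitals.

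ANKRD37, chr4:185396676-185396705, plus strand: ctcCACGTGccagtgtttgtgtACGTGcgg
BNIP3, chr10:131982041-131982070, minus strand: cgcgCACGCgccgCACGTGccaCACGCacc
P4HA1, chr10:73096936-73096965, minus strand: gtgtgatcgagctCACGTagcgagggctgc
CA9, chr9:35673897-35673926, plus strand: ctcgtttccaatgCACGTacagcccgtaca
ADM, chr11:10304959-10304988, plus strand: agagcaggagcgcGCGTGgctgaggaaaga
KDM3A, chr2:86441332-86441361, plus strand: tccgggaggctgtGCGTGtcttgtgagagc
HIF1A, chr14:61695296-61695325, plus strand: ttggctgagagcgGCGTGggctggggtggg

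The ANKRD37 stretch holds 3 matches and lies 165 to 136 bases before the RefSeq start site at 185396841. It is inside the first exon (185396484 to 185396950) of an annotated coding transcript, ENST00000335174. In another coding transcript, ENST00000507753, it falls between exons, which end at 185396424 and start again at 185396832. The BNIP3 stretch, 147 to 118 bases before its start, holds 4 matches. Those of P4HA1, ADM and HIF1A each hold 1 match, at 99 to 70, 114 to 85 and 217 to 188 bases before the start. The CA9 stretch ends 2 bases before the start. The KDM3A match is 1 site seen from 2 start sites, and the EGLN3 window held none of these letters.

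**Figure D1:**
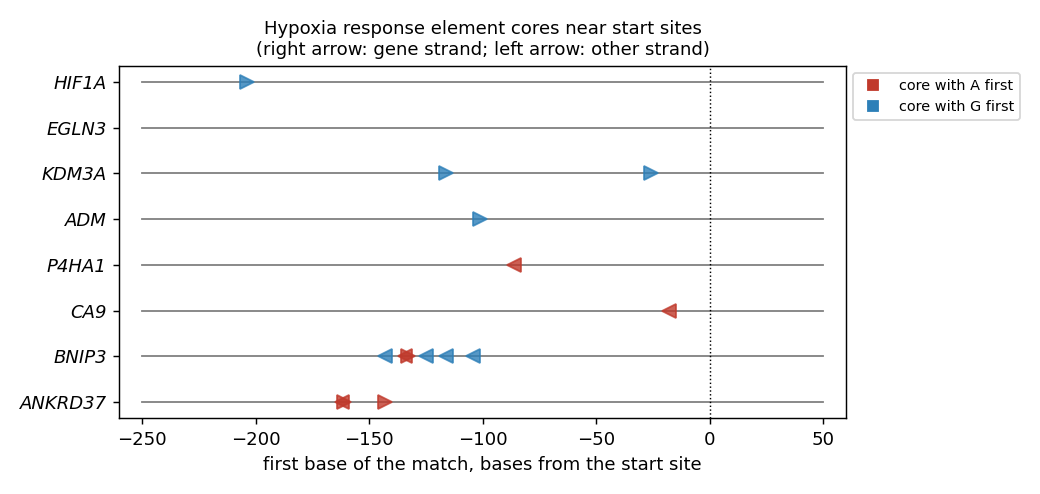
Matches of the core hypoxia response letters in the RefSeq promoter windows of the members, with distance from the start site in bases on the horizontal axis and 1 row per gene. ANKRD37 and BNIP3 carry clusters of matches, and the 2 marks of KDM3A are 1 match seen from 2 start sites.

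These letters are common in promoters. They occurred in 48.4% of all 35116 windows and in 60.4% of the 15277 windows of genes tested here, against 80% of the 10 member windows and 81% of the 63 windows of other non-glycolytic HIF targets. At least 3 matches were found in 10.1% of all windows, 14.3% of those of tested genes, 20% of member windows and 38.1% of windows of the other targets. The windows also differed in base composition, with a median GC content of 58.7% over all windows, 64.7% for tested genes, 67% for members and 68% for the other targets. A match describes the sequence and does not show that HIF binds there.

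The libraries held 14369525 to 15514404 counts in si-NC and 15688702 to 16685719 in si-SRSF11. SRSF11 (chr1:70205682-70253052, plus strand), read first to check the labels, had 1271, 1281 and 1363 counts in si-NC and 789, 789 and 807 in si-SRSF11, so that its level fell to 57.2% of si-NC (log2 fold change -0.81, SE 0.054; adjusted p = 6.1e-10 by edgeR's quasi-likelihood test, with Benjamini-Hochberg adjustment across the 15801 genes tested, as for every adjusted p below). A gene is called here when this adjusted p is under 0.05, and 24.6% of tested genes were called, 13.2% higher and 11.4% lower in si-SRSF11. All 10 colorectal epithelium markers were tested, with summed levels of 6067 to 6443 CPM (counts scaled to a common library size) in si-NC and 6117 to 6545 in si-SRSF11, although KRT20 and CEACAM5 had at most 20 counts in any library. KRT8, at 3140 ± 99.1 and 3298 ± 193 CPM (SD, n = 3), dominated the sum, and CDX2, an intestinal transcription factor gene, was higher in si-SRSF11 (log2 fold change 0.40, adjusted p = 0.00038 by edgeR), whose part in the results was not tested. The 7 markers of other cell types summed to 16.9 to 19.1 and 15.6 to 18.2 CPM, with PTPRC and DCN at 0 counts in all 6 libraries. COL1A1, at 12.7 ± 0.326 and 11.7 ± 1.24 CPM (SD, n = 3), made up most of that sum. ACTA2 had 4.41 ± 0.625 and 3.8 ± 0.517 CPM (SD, n = 3), so not all of these markers were absent. COL1A1, ACTA2 and PECAM1 were the 3 that were tested, and none was called. Mitochondrial genes took 7 to 7.25% of counts in si-NC and 8.29 to 8.51% in si-SRSF11, and the part of this difference in the results was not tested.

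After knockdown of SRSF11 some members were lower, and others, among them HIF1A itself, showed no detected change. NDRG1, P4HA1 and VEGFA fell to 69.4%, 75% and 76.8% of their si-NC levels, and ANKRD37, whose change chose it, stood at 47.5%. HIF1A, ADM, EGLN3, KDM3A and BNIP3 did not pass the test, and CA9 was too low to test. The log2 fold changes of BNIP3 (0.85), ADM (0.19) and HIF1A (0.02) were above 0. Of the 8 tested members other than ANKRD37, 3 were called, all lower, which is 37.5% against 24.6% of all tested genes; over the same 8 the median log2 fold change was -0.19, against 0.00 over all tested genes. Of the 6 among them with a mean of at least 10 CPM, 3 were called, against 32.8% of all tested genes at that depth. With an absolute log2 fold change over 1 also required, 0 of these 8 members and 1.09% of all tested genes were called. These are bulk libraries, so fewer cells expressing a gene and less RNA per cell cannot be told apart.

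**Figure D2:**
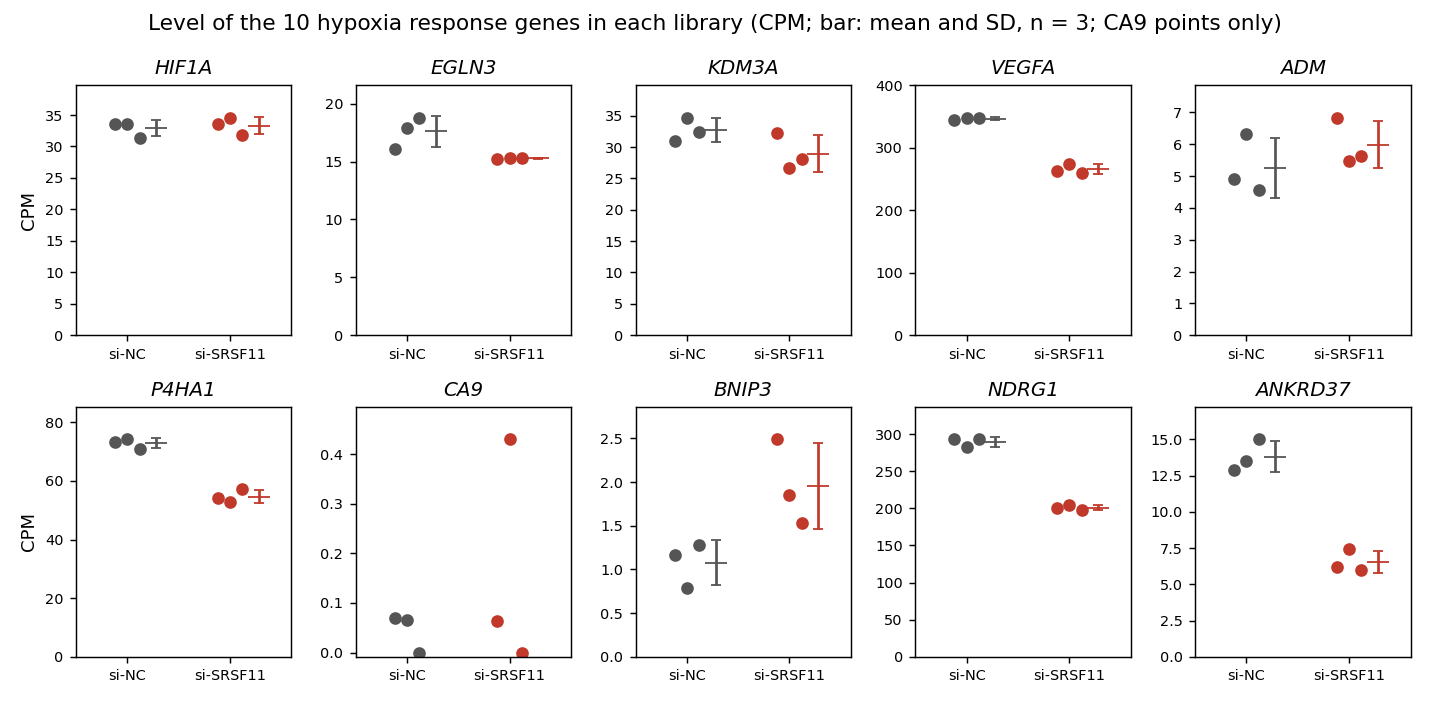
Level of each member in each library in CPM, scaled by TMM, with 1 panel per gene, si-NC in grey and si-SRSF11 in red. Points are libraries and bars are the mean and SD (n = 3), left out for CA9; the groups stand apart for VEGFA, P4HA1, NDRG1, ANKRD37, EGLN3 and BNIP3.

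ANKRD37 (ENSG00000186352, chr4:185396021-185400628, plus strand) encodes a small ankyrin repeat protein known as a HIF target. It had 187, 205 and 233 counts in the si-NC libraries and 97, 121 and 98 in the si-SRSF11 libraries. Every si-SRSF11 library lay below every si-NC library, and the levels were 13.8 ± 1.06 CPM (SD, n = 3) in si-NC and 6.55 ± 0.779 CPM in si-SRSF11. This is a log2 fold change of -1.07 (SE 0.13, 95% interval -1.33 to -0.81), given without a test because it chose the gene. For the same reason the interval is not a test, and the fold change and interval may both be too extreme. It ranked 32 among the falls of 12770 tested protein-coding genes and 95 among those of all 15801.

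The end of ANKRD37 is shared with a neighbour. Of its 2580 annotated exon bases, 909 (35.2%) are also exon bases of UFSP2, a UFM1-specific protease gene on the opposite strand, and no source says whether the counting took account of strand, so reads from the shared bases cannot be assigned to one gene with certainty. UFSP2 had 434, 433 and 472 counts in si-NC and 435, 468 and 523 in si-SRSF11, or 29.6 ± 0.956 and 29.6 ± 2.23 CPM (SD, n = 3). Its groups overlapped, and it was not called (95% interval of the log2 fold change -0.16 to 0.16, adjusted p = 1 by edgeR). The other tested genes whose spans come within 50000 bases of ANKRD37 were LRP2BP, SNX25 and C4orf47, with log2 fold changes of -0.07, -0.03 and -0.09, and none was called. The antisense gene AC112722.1, which lies upstream, had 6, 9 and 3 counts in si-NC and 1, 2 and 1 in si-SRSF11, too few to be tested.

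**Figure D3:**
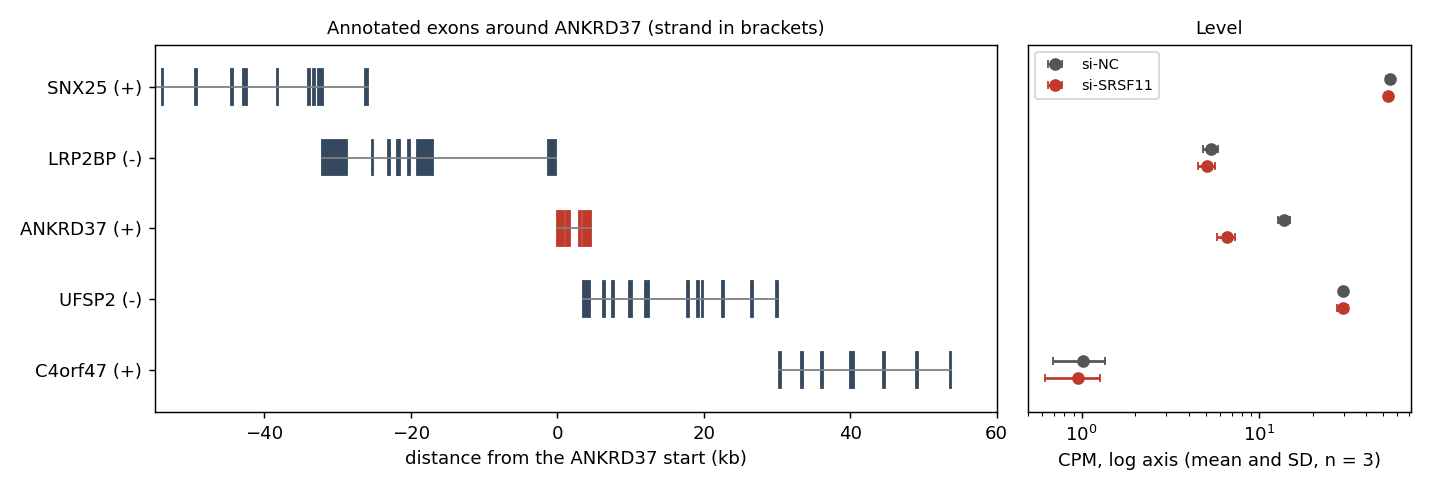
Left, annotated exons of ANKRD37 and its tested neighbours by distance from the ANKRD37 start in kb, with the strand in brackets; right, the level of each gene in CPM on a log axis as mean and SD (n = 3) in si-NC and si-SRSF11. The exons of ANKRD37 and UFSP2 meet at the right end of ANKRD37, and ANKRD37 is the gene whose groups stand apart.

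Among the regulators, HIF1A (ENSG00000100644, chr14:61695513-61748259, plus strand) encodes the oxygen-regulated alpha subunit. Its counts were 487, 510 and 489 in si-NC and 526, 563 and 518 in si-SRSF11, corresponding to 32.8 ± 1.26 and 33.3 ± 1.46 CPM (SD, n = 3). The groups overlapped and no difference was detected, with a log2 fold change of 0.02 (SE 0.071, 95% interval -0.12 to 0.17; adjusted p = 0.85 by edgeR), whose sign turned to -0.01 with scaling by library size alone. The interval bounds a change of its mRNA, and the HIF protein was not measured here.

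EGLN3 (ENSG00000129521, chr14:33924231-34462774, minus strand) encodes an oxygen-sensing prolyl hydroxylase that acts on the HIF alpha subunit and is itself a HIF target. It had 234, 272 and 293 counts in si-NC and 237, 249 and 249 in si-SRSF11, and its levels were 17.6 ± 1.36 and 15.2 ± 0.0854 CPM (SD, n = 3). All si-SRSF11 levels lay below all si-NC levels by a narrow margin, 15.3 against 16.1 CPM at the nearest. The log2 fold change of -0.21 (SE 0.096, 95% interval -0.41 to -0.01) did not pass the test (adjusted p = 0.12 by edgeR).

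KDM3A (ENSG00000115548, chr2:86440647-86492716, plus strand) encodes a histone H3 lysine demethylase that needs oxygen for its reaction. Counts of 449, 527 and 504 in si-NC stood against 504, 432 and 459 in si-SRSF11, or 32.7 ± 1.88 and 29 ± 2.91 CPM (SD, n = 3). The groups overlapped because si-SRSF11 replicate 1, at 32.2 CPM, lay within the si-NC range. The log2 fold change was -0.17 (SE 0.081, 95% interval -0.34 to -0.01; adjusted p = 0.12 by edgeR), and it was -0.26 (adjusted p = 0.028) without that library. Leaving out others moved it the other way, to -0.11 (adjusted p = 0.39) without si-SRSF11 replicate 2 and -0.13 (adjusted p = 0.36 by edgeR) without si-NC replicate 2.

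The secreted ligands differed from each other. VEGFA (ENSG00000112715, chr6:43770184-43786487, plus strand), the principal growth factor of new blood vessels, had 4985, 5286 and 5401 counts in si-NC and 4118, 4450 and 4238 in si-SRSF11. Its levels of 346 ± 2.10 and 266 ± 7.24 CPM (SD, n = 3) did not overlap, and it fell by 0.38 on the log2 scale (SE 0.045, 95% interval -0.48 to -0.29; adjusted p = 1.9e-06 by edgeR).

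ADM (ENSG00000148926, chr11:10304680-10307397, plus strand) encodes adrenomedullin, a peptide that widens vessels. It had 71, 96 and 71 counts in si-NC and 107, 89 and 92 in si-SRSF11, at 5.26 ± 0.933 and 5.99 ± 0.745 CPM (SD, n = 3). The groups overlapped, since si-NC replicate 2 was higher than 2 of the si-SRSF11 libraries, and the log2 fold change of 0.19 (SE 0.17, 95% interval -0.16 to 0.53) did not pass the test (adjusted p = 0.46 by edgeR). It ranged from 0.08 without si-SRSF11 replicate 1, and 0.09 without si-NC replicate 3, to 0.34 without si-NC replicate 2. With at most 107 counts in a library, this interval is wider than that of VEGFA.

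Among the enzymes, P4HA1 (ENSG00000122884, chr10:73007217-73096974, minus strand) encodes a catalytic subunit of collagen prolyl hydroxylase, which stabilises collagen for export. It had 1065, 1127 and 1105 counts in si-NC and 848, 856 and 931 in si-SRSF11. Its levels of 72.8 ± 1.69 and 54.7 ± 2.25 CPM (SD, n = 3) did not overlap, and it fell by 0.41 on the log2 scale (SE 0.056, 95% interval -0.53 to -0.30; adjusted p = 1.1e-05 by edgeR).

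CA9 (ENSG00000107159, chr9:35673856-35681159, plus strand) encodes the surface carbonic anhydrase that is widely used as a marker of hypoxic tumour areas. It had 1, 1 and 0 counts in si-NC and 1, 7 and 0 in si-SRSF11 and was not tested. Most of these counts came from si-SRSF11 replicate 2, and the groups overlapped. Of its 1670 exon bases, 643 (38.5%) are shared with ARHGEF39 on the opposite strand, which had 430 to 463 counts in si-NC and 436 to 482 in si-SRSF11. CA9 mRNA was therefore at or near the limit of detection in both conditions, and no fold change is given.

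Among the stress effectors, NDRG1 (ENSG00000104419, chr8:133237171-133302022, minus strand) encodes a cytoplasmic protein tied to growth arrest and differentiation and is strongly induced by low oxygen. It had 4251, 4290 and 4564 counts in si-NC and 3130, 3324 and 3225 in si-SRSF11. The levels were 289 ± 6.23 and 201 ± 3.42 CPM (SD, n = 3), all si-SRSF11 libraries lay below all si-NC libraries, and NDRG1 fell by 0.53 on the log2 scale (SE 0.046, 95% interval -0.62 to -0.43; adjusted p = 2.5e-08 by edgeR).

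BNIP3 (ENSG00000176171, chr10:131966455-131982013, minus strand) encodes a mitochondrial outer membrane receptor for mitophagy. It had 17, 12 and 20 counts in si-NC and 39, 30 and 25 in si-SRSF11, or 1.08 ± 0.259 and 1.96 ± 0.49 CPM (SD, n = 3). BNIP3 was the member whose si-SRSF11 libraries all lay above si-NC, on low counts, and its log2 fold change of 0.85 (SE 0.31, 95% interval 0.20 to 1.5) narrowly missed the threshold (adjusted p = 0.052 by edgeR). It was called without si-SRSF11 replicate 3 (0.99, adjusted p = 0.032), when genes needed 1 CPM in 3 libraries (0.85, adjusted p = 0.048), and among protein-coding genes alone (0.84, adjusted p = 0.049), and had an adjusted p of 0.11 with DESeq2. Without si-SRSF11 replicate 1 it was 0.63 (adjusted p = 0.21 by edgeR), and without si-NC replicate 2 it was 0.66 (adjusted p = 0.18).

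**Figure D4:**
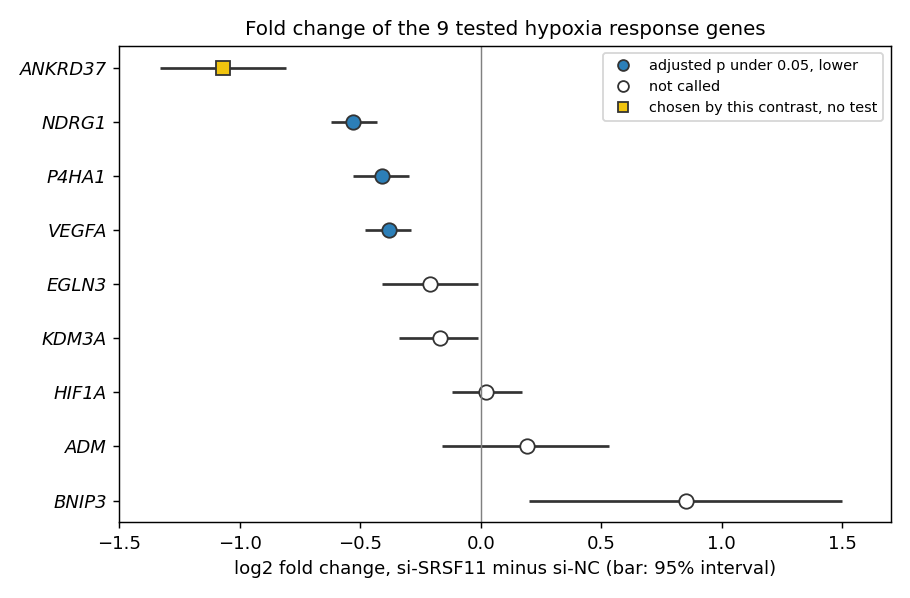
Log2 fold change of the 9 tested members, si-SRSF11 minus si-NC, with 95% intervals. NDRG1, P4HA1 and VEGFA are called lower, and the widest interval is that of BNIP3. ANKRD37 is a square because its change chose it, so its interval is not a test.

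Groups did not overlap for 5 of the 8 tested members other than ANKRD37, with VEGFA, NDRG1, P4HA1 and EGLN3 below and BNIP3 above, while 38.8% of all tested genes did not overlap. An exact two-sided permutation test over the 6 libraries, which cannot go below 0.10 with 3 against 3, gave p = 0.10 for each of these 5. The same exact test gave p = 0.20 for KDM3A, p = 0.40 for ADM and p = 0.50 for HIF1A.

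Levels per kilobase of annotated gene length spanned a wide range. In si-NC the highest were NDRG1 at 29.5 ± 0.634, VEGFA at 24 ± 0.145 and P4HA1 at 23.6 ± 0.546 CPM per kb (SD, n = 3). HIF1A at 6.38 ± 0.244 and ANKRD37 at 5.34 ± 0.412 followed, ahead of KDM3A at 2.43 ± 0.14, EGLN3 at 2.39 ± 0.185 and ADM at 1.93 ± 0.343. BNIP3 at 0.203 ± 0.0487 and CA9 at 0.0269 ± 0.0233 CPM per kb were far below the rest. The library ranges of VEGFA and P4HA1, of KDM3A and EGLN3, and of EGLN3 and ADM overlapped, so these neighbours cannot be ordered. The order also rests on the annotated length, which takes in the exons of all transcripts of a gene. For ANKRD37 it is 2580 bases, with exon bases that a coding transcript, ENST00000335174, lacks, and 35.2% of the 2580 bases are shared with UFSP2. The place of ANKRD37 in the order is therefore uncertain in both conditions. In si-SRSF11, ANKRD37 had a lower level of 2.54 ± 0.302 CPM per kb but the same rank of 5 by mean. Its range there overlapped those of ADM at 2.2 ± 0.274 and KDM3A at 2.16 ± 0.217, so these cannot be ordered. NDRG1 at 20.4 ± 0.348 stayed above VEGFA at 18.4 ± 0.502.

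The genes whose profile over the 6 libraries was most like that of ANKRD37 were sought among 10930 protein-coding genes whose mean log2 CPM was 2 or more. Likeness was the root mean square difference of log2 CPM, after each gene's own si-NC mean was subtracted, and a smaller value is closer. SRXN1, which encodes the antioxidant enzyme sulfiredoxin, was closest at 0.083, with a log2 fold change of -1.0. LMNTD2 (0.096), IZUMO1 (0.12), ARRDC4 (0.14) and KLHDC7B (0.17) followed, with log2 fold changes of -0.95, -1.02, -1.04 and -1.08. SRXN1 and LMNTD2 share 85% and 39.5% of their exon bases with other annotated genes, so their counts are less certain. No other member of the hypoxia set was among these 5. Since the measure selects genes that fell by a similar amount, these changes are a description.

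The oxygen-sensing machinery around HIF had calls in both directions. Of 26 genes for HIF subunits, hydroxylases, the VHL ligase, coactivators and regulators, 24 were tested and 5 (20.8%, against 24.6% of all tested genes) were called, 2 higher and 3 lower, with a median log2 fold change of -0.04. All 5 were among the 22 with a mean of at least 10 CPM, and 32.8% of all tested genes at that depth were called. The 2 that rose were the chaperone genes HSP90AA1, which protects the HIF alpha subunit among many clients, at 0.80 (adjusted p = 4.9e-11 by edgeR) and HSP90AB1 at 0.47 (adjusted p = 3.4e-08 by edgeR). ARNT, the stable HIF partner, had 842, 931 and 949 counts in si-NC and 752, 838 and 823 in si-SRSF11 and fell by 0.26 on the log2 scale (adjusted p = 0.0019 by edgeR). The coactivator gene CREBBP at -0.18 (adjusted p = 0.042 by edgeR) and EPAS1, which encodes another HIF alpha subunit and is named after its values were seen, at -0.20 (adjusted p = 0.046 by edgeR), were called on small margins. Both lost the call without si-SRSF11 replicate 3 or without any 1 of the si-NC libraries, and with DESeq2. The list had 3 calls without each si-NC library in turn, 8 without si-SRSF11 replicate 1, 3 with DESeq2 and 8 with scaling by library size alone. The hydroxylase gene EGLN1, the ligase gene VHL and the asparaginyl hydroxylase gene HIF1AN, also named after their values were seen, had log2 fold changes of -0.04 each and were not called.

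Other non-glycolytic HIF targets were called in 22 of 47 tested genes (46.8%, against 24.6% of all tested genes), 6 higher and 16 lower, with a median log2 fold change of -0.14. The list holds 55 genes. The higher calls include LOXL2, which passed the count filter only through si-SRSF11, where it was higher. The median was -0.07 without si-NC replicate 3, -0.10 without si-NC replicate 2 or si-SRSF11 replicate 2, and -0.09 with no filter on low counts. Of its 38 tested genes with a mean of at least 10 CPM, 19 were called, against 32.8% of all tested genes at that depth. Among the smallest adjusted p-values were those of RBCK1, a subunit of the linear ubiquitin ligase (-0.50, adjusted p = 9.7e-08 by edgeR), MAFF, a small MAF transcription factor (-0.48, adjusted p = 4.3e-07), and BHLHE40, a transcriptional repressor (-0.65, adjusted p = 8.5e-07). RBCK1 had 4763, 4859 and 5308 counts in si-NC and 3742, 3607 and 3856 in si-SRSF11. BHLHE40 had 652, 603 and 678 counts against 424, 464 and 426. All si-SRSF11 libraries lay below all si-NC libraries for both genes.

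The other genes of this list named here were picked after their values were seen. MIR210HG, the host transcript of a hypoxia-induced microRNA, had the lowest fold change of the list, at -0.91 (SE 0.18, adjusted p = 0.00074 by edgeR), with 89, 80 and 111 counts in si-NC and 44, 55 and 59 in si-SRSF11. DDIT4, an inhibitor of mTOR signalling that shares 41.2% of its exon bases with an antisense gene at 0 counts, fell by 0.39 on the log2 scale, and CAV1, the main coat protein of caveolae, fell by 0.57. BNIP3L and P4HA2, paralogues of BNIP3 and P4HA1, fell with smaller folds, BNIP3L by 0.23 (adjusted p = 0.0034 by edgeR), with 1148, 1165 and 1132 counts against 1034, 1014 and 1073, and P4HA2 by 0.24 (adjusted p = 0.011 by edgeR), a call lost without si-NC replicate 3. Thus BNIP3 and BNIP3L, which encode related mitophagy receptors, had log2 fold changes of opposite sign, although that of BNIP3 did not pass the test.

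Genes of this list also rose. TFRC, the transferrin receptor, rose by 0.38 on the log2 scale (adjusted p = 1.2e-06 by edgeR) and PLOD1, a lysyl hydroxylase of collagen, by 0.35 (adjusted p = 8.3e-06 by edgeR). CA12, which encodes a surface carbonic anhydrase related to CA9, had 152, 122 and 150 counts in si-NC and 238, 245 and 235 in si-SRSF11 and rose by 0.67 (adjusted p = 0.00018 by edgeR). ERO1A, an oxidase of disulfide formation, rose by 0.29 (adjusted p = 0.00059 by edgeR). LOXL2, a collagen crosslinking enzyme, had the largest log2 fold change of the list at 1.44 (SE 0.47, adjusted p = 0.027 by edgeR) but on 4, 3 and 9 counts against 13, 20 and 14, and its call held in 1 of the 6 fits that left out a library.

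**Figure D5:**
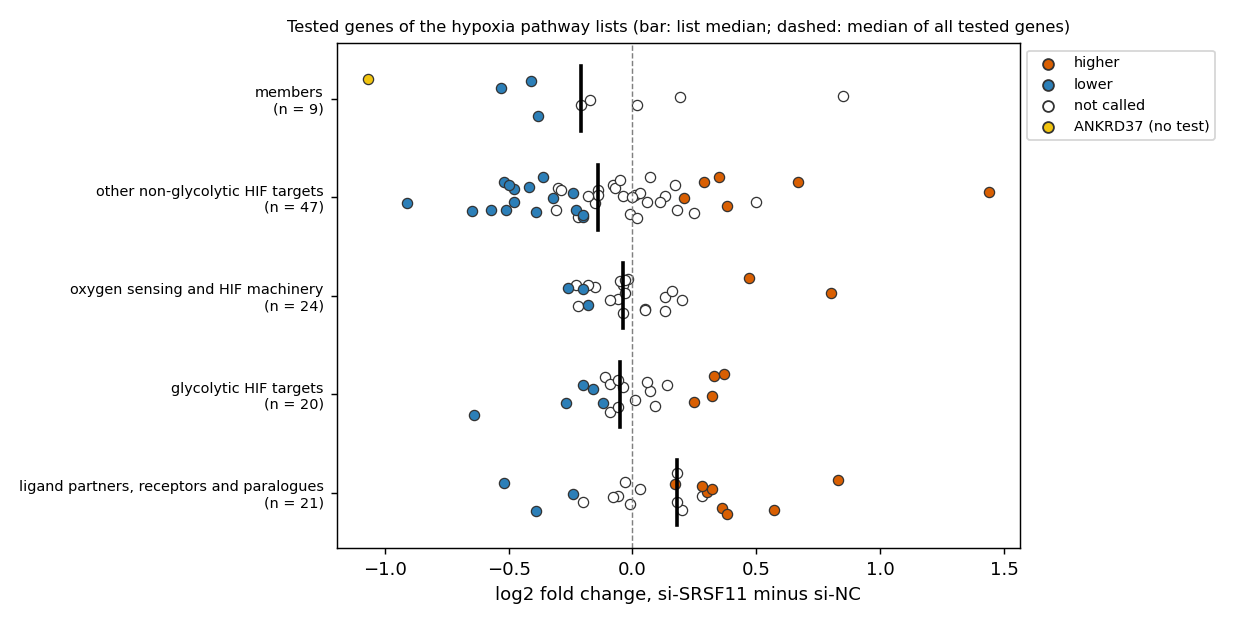
Log2 fold change of each tested gene of the members and of 4 lists of the hypoxia pathway, si-SRSF11 minus si-NC, coloured by call, with a bar at each list's median and a dashed line at the median of all tested genes. Members and other non-glycolytic targets have medians of -0.21 (-0.19 without ANKRD37, whose fall chose it) and -0.14, and the list of ligand partners, receptors and paralogues has a median of 0.18.

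Partners and relatives of the members were called in 11 of 21 tested genes (52.4%, against 24.6% of all tested genes) of a list of 38, 8 higher and 3 lower, with a median log2 fold change of 0.18. That median was 0.12 without si-NC replicate 3 and 0.02 with no filter on low counts, where 31 genes were tested, and the higher calls dropped to 5 without si-NC replicate 2. Of the 17 tested genes of this list with a mean of at least 10 CPM, 10 were called, against 32.8% of all tested genes at that depth. P4HB, which encodes the other subunit of the enzyme that P4HA1 belongs to, rose while P4HA1 fell, with 8993, 8966 and 9860 counts in si-NC and 12781, 13137 and 12576 in si-SRSF11 (log2 fold change 0.38, adjusted p = 1.9e-06 by edgeR). NRP1, a coreceptor of VEGFA, rose by 0.57 (adjusted p = 1.4e-05 by edgeR), from 305, 330 and 319 counts to 491, 480 and 542. FLT1, a receptor of VEGFA named after its values were seen, had 39, 35 and 38 counts against 55, 84 and 74 and rose by 0.83 (adjusted p = 0.0053 by edgeR). The receptor gene KDR and the ligand gene VEGFC, also chosen after their values were seen, were at 0 counts in all 6 libraries. NRP2, FLT4 and the ligand gene PGF, of the same family of ligands and receptors and likewise chosen afterwards, were tested and not called. Their log2 fold changes were -0.06, 0.03 and -0.01.

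VEGFB, a VEGFA relative also named after its values were seen, fell by 0.39 on the log2 scale (adjusted p = 0.0015 by edgeR), and ADM2, which encodes a peptide related to adrenomedullin, fell by 0.24 (adjusted p = 0.00064 by edgeR). The cytosolic carbonic anhydrase gene CA2 fell by 0.52 (adjusted p = 3e-05 by edgeR), so the carbonic anhydrase genes CA2 and CA12 moved in opposite directions. Of the adrenomedullin receptor parts, likewise chosen after their values were seen, CALCRL was not tested and RAMP2 and RAMP3 were at 0 counts in all 6 libraries. RAMP1, of the same gene family and also chosen afterwards, rose by 0.36 on the log2 scale (adjusted p = 0.011 by edgeR). That call was lost without si-NC replicate 3.

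Glycolytic HIF targets were called in 9 of 20 genes (45%, against 24.6% of all tested genes), 4 higher and 5 lower, with a median of -0.05. All 20 had a mean of at least 10 CPM, and 32.8% of all tested genes at that depth were called. The lower calls dropped to 2 without si-NC replicate 1 and to 3 without si-NC replicate 3, with 4 higher in both. The glucose transporter gene SLC2A1 rose by 0.37 on the log2 scale (adjusted p = 8.2e-07 by edgeR), PGAM1 by 0.33 (adjusted p = 1.3e-05 by edgeR) and PFKL by 0.32 (adjusted p = 3.7e-05 by edgeR), whereas ALDOA fell by 0.64 (adjusted p = 0.00032 by edgeR). The called glycolytic genes thus moved both ways. The value of ALDOA is uncertain, since 53.5% of its exon bases are shared with other annotated genes, mainly AC093512.2 on the same strand, between which its reads could be split.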

How the data were processed

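Poly(A) RNA from LoVo cells was sequenced by the authors as paired-end reads. The authors deposited unnormalised counts per gene on hg38, and the aligner, counting program and strand setting are not given in the sources used here. Samples were grouped by the deposited labels, and SRSF11 was read first as a check of them, since a splicing panel of the study shows the library names under the opposite conditions, which would turn each sign. SRSF11 was lower in the libraries labelled si-SRSF11. Genes that reached 10 counts in 3 or more libraries were scaled by TMM and tested with edgeR 4.0.16 (glmQLFit, glmQLFTest; R 4.3.3) on condition, with Benjamini-Hochberg adjustment over all tested genes. SEs and 95% intervals came from the quasi-likelihood F statistic. The fit was tested on simulated data. Alternatives were DESeq2 1.42.0, other scalings, filters and gene sets, a replicate block, a fold threshold and each library left out.

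Coordinates, gene lengths and exons are those of GENCODE 29, and promoter windows those of RefSeq. Named genes were SRSF11, the members, up to 4 called genes per list with the smallest adjusted p, neighbours and exon-sharing genes of members, and the 5 profiles closest to ANKRD37; others are marked, and 1 gene that the rule names is not reported here. Members and lists were chosen with earlier results of these data known.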

Additional observations from a re-analysis of the deposited data

How the results depend on the processing

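VEGFA, NDRG1 and P4HA1 stayed called and lower under DESeq2, scaling by library size or upper quartile, the other filters, protein-coding genes only, the replicate block and each library left out. With each library left out, ANKRD37 ranged from -1.17 to -1.01 on the log2 scale, SRSF11 from -0.82 to -0.79, and calls from 2741 to 3871 over all genes, 3 to 4 for members other than ANKRD37, 3 to 8 for oxygen sensing and HIF machinery, 19 to 22 for other non-glycolytic targets, 6 to 10 for glycolytic targets and 8 to 10 for ligand partners, receptors and paralogues. The fold change of HIF1A was -0.01 with library-size scaling, without si-NC replicate 3 and without si-SRSF11 replicate 2, and ranged from -0.01 to 0.05 with a library left out. The machinery had 3 calls with DESeq2 and 8 with library-size scaling, and the cause was not tested. A fold threshold of 1 on the log2 scale left 173 calls over all genes, 1 among other non-glycolytic targets and 0 in each other list and among members other than ANKRD37. The call left among the other non-glycolytic targets was LOXL2, which passed the count filter only through si-SRSF11. Library-size scaling turned the split of all calls from 2081 higher and 1805 lower to 1585 higher and 2289 lower, with a shift of -0.03 in the median. Same-numbered libraries hardly deviated together (correlations 0.0151, 0.0362 and 0.0403), though each correlated best with its own number, a hint from the data only. With the replicate number as a block, 4036 genes were called, SRSF11 had -0.80 and no member's call changed. Depth limits BNIP3, at 12 to 39 counts, and CA9, for which 0 counts allow up to 0.193 CPM in si-NC replicate 3 and 0.184 in si-SRSF11 replicate 3, for counting error only.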
